A study of Bos taurus with 10 samples.

Results

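Crym, which encodes mu-crystallin, and 7 other genes of thyroid hormone handling were followed across all libraries of the series. The set held Crym, the receptors Thra and Thrb, the deiodinases Dio2 and Dio3, the transporter Slc16a10, the corepressor Ncor1 and the hormone-responsive gene Thrsp. These 8 genes, each with 1 row, were taken by symbol from the 21130 rows of the deposited table. They were selected on earlier results of the same table, in which Crym showed a very large difference between the labelled groups, so their group differences are given as a description with no test. The labels name 2 groups of muscle RNA from cattle of 24 months: 7 libraries labelled MSTN+/-, that is heterozygous for an altered gene of myostatin, a brake on muscle growth, and 3 labelled wild type. No treatment is given. The labels do not say what the altered allele is, how it was made or whether libraries came from separate animals, so any p-value measures only the spread between libraries, which may be technical.

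Values are FPKM, fragments scaled to transcript length and to mapped fragments, so levels can be compared between genes. Summed FPKM ran from 402716 to 464418 per library, 11856 to 13858 genes reached 1 FPKM, and no pair of libraries was identical. The contents went against the labelled species: 19415 rows, 6 of the 8 genes among them, were described as Mus musculus (the other 2 had no description), and 0 gene identifiers matched a cattle gene table. No difference is therefore ascribed to the genotype or to cattle muscle. Genes are named by mouse symbol with the identifier in the table, which gives no coordinates.

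Thyroid hormone enters cells through membrane transporters, since it crosses the membrane poorly unaided. Inside, deiodinases set its activity by removing iodine: type 2 (Dio2) makes active T3 from the prohormone T4, and type 3 (Dio3) inactivates both. T3 binds nuclear receptors that sit on DNA with a retinoid X receptor partner, where corepressors such as NCOR1 are held without hormone and coactivators are recruited with it. Mu-crystallin binds T3 in the cytosol in an NADPH-dependent way and is also a ketimine reductase, an enzyme of lysine and imino acid metabolism. In skeletal muscle the pathway is known for its effects on fibre type, metabolic rate and regeneration.

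The libraries were checked first against cell type markers, because the labelled wild-type libraries stood apart from one another. Of 11 markers of skeletal muscle fibres, 4 stayed below 1 FPKM in every library, including the titin gene Ttn (0.01 to 0.40 FPKM), and Ckm, the muscle creatine kinase, ranged from 0.13 to 1.07 FPKM. The summed level of the 11 was 8.50 to 12.93 FPKM in the MSTN+/- group and 12.88 to 26.66 FPKM in the wild-type group. The highest sum, 26.66 FPKM, was that of wild-type replicate 1, where only 1 of the 11 reached 1 FPKM. That marker was the actin gene Acta1, at 2.66 to 24.43 FPKM over all libraries. All 10 fibroblast markers reached 1 FPKM in every library. Their sum was 2763 to 5661 FPKM in the MSTN+/- group, 5891 FPKM in wild-type replicate 1, and 370.4 and 263 FPKM in wild-type replicates 2 and 3. Of 10 markers of pluripotent cells, 8 to 10 reached 1 FPKM in each MSTN+/- library and all 10 did so in wild-type replicates 2 and 3, but 0 in wild-type replicate 1. Their sum was 908.4 to 1558 FPKM in the MSTN+/- group and 2.28, 2694 and 3039 FPKM across wild-type replicates 1 to 3. Wild-type replicate 1 thus carried fibroblast genes almost without pluripotency genes, and wild-type replicates 2 and 3 the reverse emphasis. In bulk RNA, fewer cells of a type and less RNA per cell cannot be told apart.

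**Figure D1:**
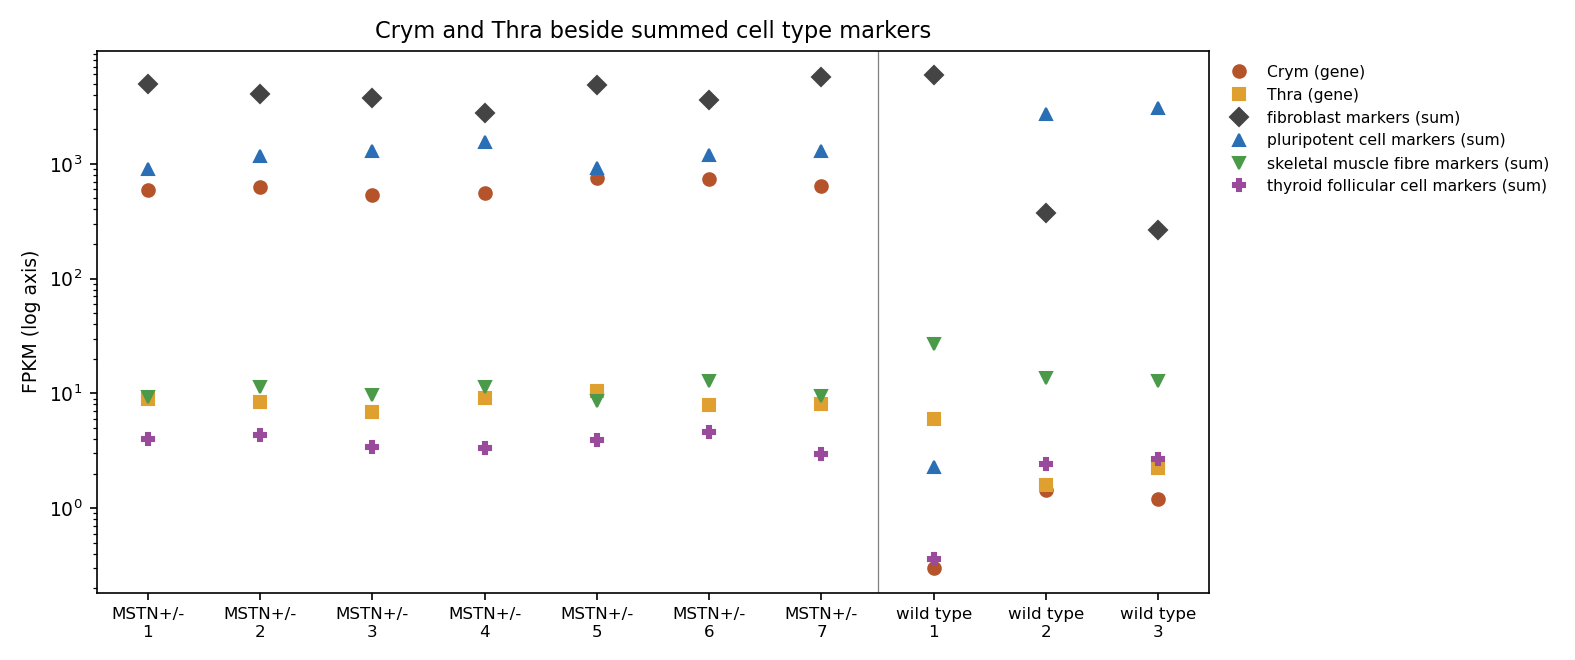
Level of Crym and Thra and the summed level of 4 marker lists (FPKM, log axis) in each of the 10 libraries, with the labelled groups separated by a vertical line and no error bars, since each point is 1 library. Crym lies at 536 to 755 FPKM in every MSTN+/- library and at 0.30 to 1.45 FPKM in the wild-type group, and the fibroblast sum of wild-type replicate 1 (5891 FPKM) and the pluripotent sums of wild-type replicates 2 and 3 lie above those of all MSTN+/- libraries.

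Thyroid follicular cells, the hormone-producing cells, were not visible. Of 10 of their markers in the table, 8 stayed below 1 FPKM in every library. Thyroglobulin (Tg), the hormone precursor, reached at most 0.10 FPKM. The 2 that rose above 1 FPKM were the iodide transporter gene Slc5a5, at most 1.92 FPKM, and the thyrotropin receptor gene Tshr, at most 3.27 FPKM. Of 4 macrophage markers, 2 stayed below 1 FPKM throughout, and of 4 adipocyte markers, 3 did, with the exception of Fabp4 (2.43 to 44.57 FPKM). Of 5 neuronal markers, Tubb3 and Stmn2 were at 12.96 to 45.63 and 10.60 to 102.52 FPKM, while the neuronal nuclear protein gene Rbfox3 did not exceed 0.56 FPKM. The summed neuronal list was 48.59 to 101 FPKM in the MSTN+/- group and 35.39 to 135.1 FPKM in the wild-type group.

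Crym (gene 12971) was among the most abundant transcripts of the MSTN+/- libraries and at 1.45 FPKM or less in the wild-type libraries. In MSTN+/- replicates 1 to 7 it was at 588.82, 624.29, 535.78, 553.76, 755.42, 738.12 and 645.21 FPKM. The 3 wild-type replicates, in order, held 0.30, 1.45 and 1.20 FPKM. The 2 groups were far apart, with no library between 1.45 and 535.78 FPKM, and MSTN+/- replicates 5 and 6 were the highest. The means were 634.5 ± 85.6 FPKM (SD, n = 7) and 0.983 ± 0.605 FPKM (SD, n = 3).

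Ranked by FPKM within a library, Crym stood at position 81 to 122 of 21130 rows in the MSTN+/- libraries and at 11845 to 13577 in the wild-type libraries. On the log2(FPKM + 1) scale, where differences between low values come out too small, the difference was 8.36. It was 8.92 against wild-type replicate 1 alone and 8.09 against wild-type replicates 2 and 3, so the gap was present against each kind of wild-type library. Beside these values, the fibroblast sum was 5891 FPKM in wild-type replicate 1 and 2763 to 5661 FPKM in the MSTN+/- group, and the pluripotent sum was highest in wild-type replicates 2 and 3. The summed thyroid follicular markers, low throughout, were ordered between the groups as Crym was: 2.94 to 4.59 FPKM in the MSTN+/- group against 0.36, 2.42 and 2.66 FPKM across wild-type replicates 1 to 3, with Tg at 0.10 FPKM or less. Of this list only Slc5a5 and Tshr reached 1 FPKM in any library. The part of any cell type in the Crym difference was not tested.

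Among the 7 MSTN+/- libraries, a spread that the selection did not use, Crym varied with a coefficient of variation of 13.5%. The median over the 662 genes with a mean of at least 100 FPKM in these libraries was 9.22%, and 75.7% of those genes varied less than Crym.

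**Figure D2:**
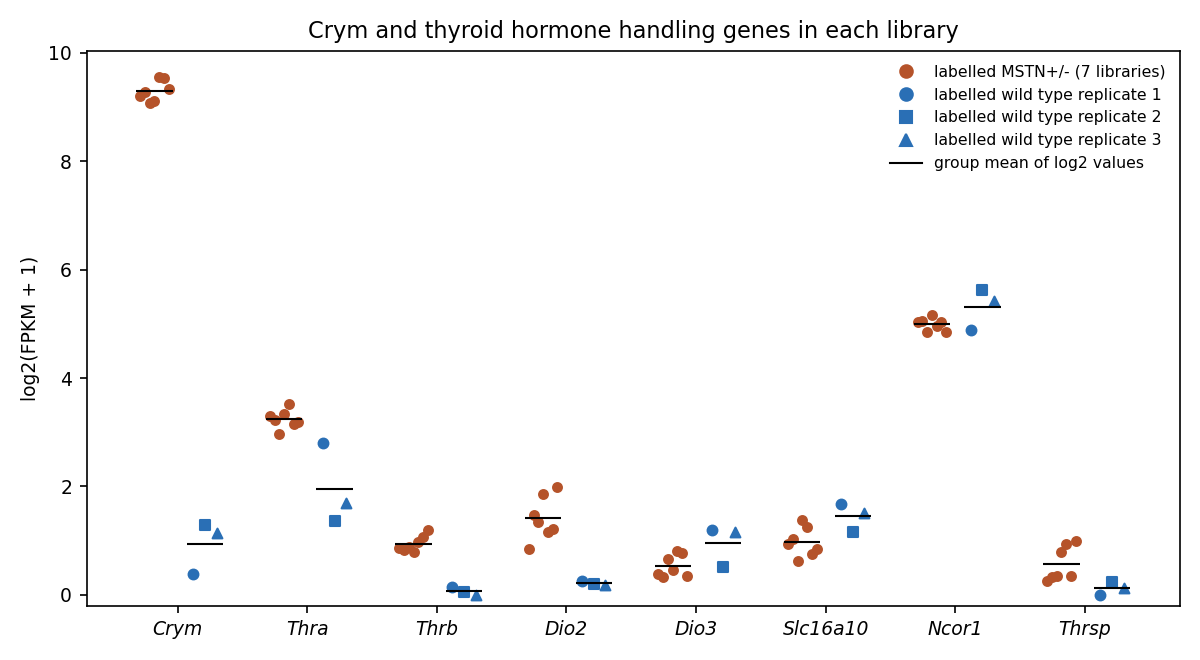
Levels of the 8 genes on the log2(FPKM + 1) scale, with a point per library (7 labelled MSTN+/- in red, 3 labelled wild type in blue with a symbol for each replicate) and a line at each group's mean log2 value. Crym separates the groups by 8.36 on this scale, Thra, Thrb, Dio2 and Thrsp lie higher in every MSTN+/- library by smaller steps, and Dio3, Slc16a10 and Ncor1 overlap.

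The genes with the profile nearest to that of Crym were Aldh3a1, Prelp, Ifi27l2a, Lbp and Apod. They had the smallest root mean square difference from Crym over the 10 libraries, each gene centred on its own mean log2 level, among 9695 other genes tested with a mean of at least 5 FPKM. The distance was 0.39 log2 units for Aldh3a1, an aldehyde dehydrogenase, 0.63 for Prelp, a matrix proteoglycan, and 0.66 for Ifi27l2a, an interferon-induced gene. It was 1.05 for Lbp, a lipopolysaccharide-binding protein of the acute phase, and 1.11 for Apod, an apolipoprotein. All 5 were higher in each MSTN+/- library than in any wild-type library, which is what the measure of likeness selects.

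They were not identical to Crym within the wild-type libraries. Prelp was highest in wild-type replicate 1, at 2.28 FPKM against 0.50 and 0.85 FPKM in replicates 2 and 3. Crym, Aldh3a1 and Apod were lowest there, at 0.30, 0 (as listed) and 1.25 FPKM. Within the MSTN+/- libraries the highest value fell in replicate 5 for Crym, in replicate 4 for Aldh3a1 (360.66 FPKM), in replicate 6 for Apod (323.18 FPKM), and in replicate 7 for Prelp, Ifi27l2a and Lbp (458.10, 555.67 and 130.86 FPKM).

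**Figure D3:**
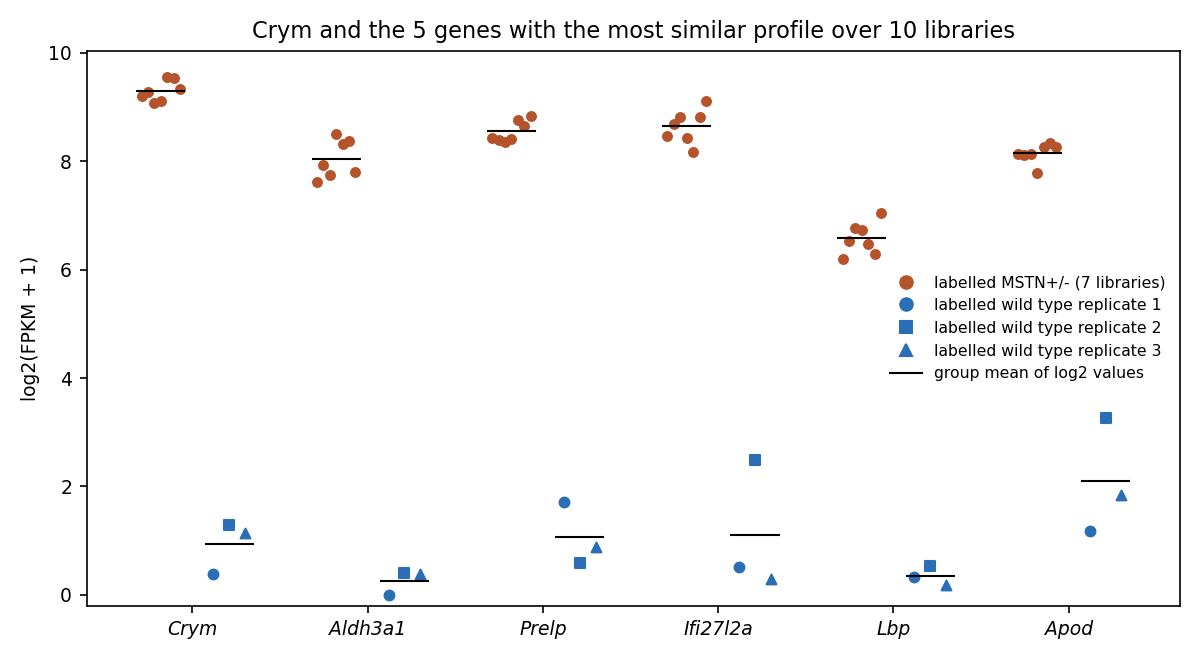
Crym and the 5 genes nearest to it in profile, on the log2(FPKM + 1) scale, with a point per library and a line at each group's mean log2 value. All 6 genes are high in the 7 MSTN+/- libraries and low in the 3 wild-type libraries, and the wild-type order differs between genes: Apod and Ifi27l2a are highest in wild-type replicate 2 (8.59 and 4.61 FPKM), Prelp in replicate 1 (2.28 FPKM).

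Of the nuclear receptors, Thra (gene 21833), which encodes receptor alpha, was the more abundant by level in all 10 libraries. It was at 8.91, 8.35, 6.83, 9.12, 10.52, 7.86 and 8.11 FPKM in MSTN+/- replicates 1 to 7 and at 5.97, 1.58 and 2.24 FPKM across wild-type replicates 1 to 3. The groups did not overlap, but wild-type replicate 1 lay close to the lowest MSTN+/- library and far above the other wild-type libraries. The log2 difference of 1.29 was 0.44 against wild-type replicate 1 alone and 1.71 against wild-type replicates 2 and 3. Across the wild-type libraries Thra was thus higher where the fibroblast sum was high (5891 FPKM) than where it was low (370.4 and 263 FPKM). The MSTN+/- libraries did not keep this order. Replicate 4, with the lowest fibroblast sum (2763 FPKM), held Thra at 9.12 FPKM, and replicate 7, with the highest (5661 FPKM), at 8.11 FPKM. Replicate 5, with the highest Thra (10.52 FPKM), had a sum of 4826 FPKM. The part of cell type in the Thra difference was not tested.

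The Nr1d1 gene, a clock repressor, lies antisense to Thra and overlaps its 3′ end. The counting is not stated to use strand, so reads in the overlap cannot be told apart. Nr1d1 was at 29.91 ± 3.39 FPKM (SD, n = 7) in the MSTN+/- group and at 10.14, 5.24 and 5.17 FPKM across wild-type replicates 1 to 3, the same order of libraries as Thra: MSTN+/- above wild-type replicate 1, and that above wild-type replicates 2 and 3. Its log2 difference was 2.03 (SE 0.19, limma adjusted p = 2.26e-05, higher in 7 of 7 libraries).

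Thrb (gene 21834), which encodes receptor beta, was low throughout. It was at 0.82, 0.78, 0.84, 0.74, 0.97, 1.09 and 1.29 FPKM in MSTN+/- replicates 1 to 7, with 0.11 FPKM in wild-type replicate 1, 0.03 FPKM in replicate 2 and a listed 0 in replicate 3. The groups did not overlap, and wild-type replicate 1, unlike for Thra, lay with the other wild-type libraries. The log2 difference was 0.88, and 0.79 against wild-type replicate 1 alone. At such low levels the pseudocount sets the size: with 0.1 in place of 1 the difference was 2.86, and after TPM rescaling it was 1.45. The FPKM ratio of Thra to Thrb was 6.29 to 12.3 in the MSTN+/- libraries and 54.3 and 52.7 in wild-type replicates 1 and 2, where Thrb is too low for the ratio to be precise.

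The deiodinases were expressed at low levels and in opposite order in the 2 groups. Dio2 (gene 13371), the activating enzyme, was at 0.80, 1.77, 1.53, 2.63, 1.23, 1.32 and 2.97 FPKM in MSTN+/- replicates 1 to 7 and at 0.19, 0.15 and 0.13 FPKM across wild-type replicates 1 to 3. The groups did not overlap, the 3 wild-type libraries were alike, and MSTN+/- replicates 4 and 7 were highest. Its log2 difference was 1.20, with 1.16 against wild-type replicate 1 alone and 1.22 against the other 2, and it was 2.75 with a pseudocount of 0.1. Dio2 reached 1 FPKM in 6 libraries, all MSTN+/-, so it passed the low-value filter only through the group in which it was high.

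Dio3 (gene 107585), the inactivating enzyme, was at 0.30, 0.26, 0.59, 0.38, 0.76, 0.71 and 0.27 FPKM in MSTN+/- replicates 1 to 7 and at 1.28, 0.43 and 1.23 FPKM across wild-type replicates 1 to 3. The groups overlapped, because wild-type replicate 2 fell inside the MSTN+/- range. The log2 difference was -0.41, with -0.89 at a pseudocount of 0.1 and -0.78 after quantile normalization. Set side by side, Dio2 exceeded Dio3 in each of the 7 MSTN+/- libraries, with an FPKM ratio of 1.62 to 11, and Dio3 exceeded Dio2 in each of the 3 wild-type libraries, with a ratio of Dio2 to Dio3 of 0.106 to 0.349. Both genes lie near or below 1 FPKM, so these ratios rest on few fragments. Total depth is unknown for these libraries.

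Slc16a10 (gene 72472), a transporter of aromatic amino acids and thyroid hormone, was at 0.91, 1.05, 0.55, 1.60, 1.38, 0.68 and 0.80 FPKM in MSTN+/- replicates 1 to 7. It was at 2.20, 1.24 and 1.84 FPKM across wild-type replicates 1 to 3. The groups overlapped through wild-type replicate 2 and MSTN+/- replicates 4 and 5, and the log2 difference was -0.47, with -0.80 at a pseudocount of 0.1 and -0.89 after quantile normalization.

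Ncor1 (gene 20185), the corepressor bound by receptors without hormone, varied least of the 8 among the MSTN+/- libraries. It was at 27.85, 31.77 and 34.80 FPKM at the lowest, the median and the highest of the 7 MSTN+/- libraries, with a coefficient of variation of 7.95%. In wild-type replicates 1, 2 and 3 it was at 28.45, 48.35 and 41.86 FPKM. Wild-type replicate 1 lay within the MSTN+/- range and the other 2 above it, so the log2 difference of -0.31 was 0.12 against wild-type replicate 1 alone and -0.53 against wild-type replicates 2 and 3. The pluripotent sum was also high in wild-type replicates 2 and 3 (2694 and 3039 FPKM) and low in wild-type replicate 1 (2.28 FPKM), and its part in the Ncor1 difference was not tested.

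Thrsp (gene 21835), a lipogenic gene induced by thyroid hormone in liver and fat, did not reach 1 FPKM in any library. It was at 0.20, 0.26, 0.27, 0.73, 0.92, 0.28 and 0.99 FPKM in MSTN+/- replicates 1 to 7, with a listed 0 in wild-type replicate 1, 0.18 FPKM in replicate 2 and 0.09 FPKM in replicate 3. The groups were separated by only 0.20 against 0.18 FPKM, and the MSTN+/- libraries themselves spanned 0.20 to 0.99 FPKM. Its coefficient of variation of 66.2% was the largest of the 8 genes in these libraries, and the log2 difference was 0.45, with 1.64 at a pseudocount of 0.1 and 0.78 after TPM rescaling.

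In order of mean level, the MSTN+/- libraries held Crym, Ncor1, Thra, Dio2, Slc16a10, Thrb, Thrsp and Dio3. The ranges of Crym, Ncor1 and Thra did not overlap with those of their neighbours in this order, whereas each neighbouring pair from Dio2 downwards overlapped. In the wild-type libraries the order was Ncor1, Thra, Slc16a10, Crym, Dio3, Dio2, Thrsp and Thrb. There Ncor1 stood clear of Thra, and Dio3 of Dio2, and all other neighbouring pairs overlapped. Crym thus moved from the top of the order to the fourth place, and Ncor1, the second gene, was the first in the wild type.

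In 5 of the 8 genes the lowest MSTN+/- library exceeded the highest wild-type library (Crym, Thra, Thrb, Dio2 and Thrsp), and in 0 the reverse held. Of all 21130 rows, 19.2% were ordered the same way and 4.93% the opposite way, and of the 14047 genes tested 25.2% and 6.86%. The selection used this contrast, so nothing is read from the count. Of the 8, 5 passed the filter of at least 1 FPKM in at least 3 libraries, and Thrb, Dio3 and Thrsp did not.

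The wider pathway was described from 12 lists of 78 other genes, drawn up by function with earlier results of the table known. Of these, 75 had a row and 53 passed the filter, and limma called 11 higher and 13 lower in the MSTN+/- libraries at an adjusted p under 0.05. The counts include Slco4a1, Aass and Ugt1a6a, which met the filter only through the group in which each was high. Of all 14047 genes tested, 31.8% were higher and 12.8% lower. The median log2 difference was -0.12 over the 53 list genes and 0.17 over all genes tested. The balance of directions moved with scaling and with the wild-type libraries used. After median-of-ratios scaling the list genes stood at 9 higher and 23 lower, after quantile normalization at 9 and 22, after TPM rescaling at 10 and 18, and with library weights at 12 and 21. Without wild-type replicate 1 they stood at 15 and 23, without wild-type replicate 3 at 9 and 8, and against wild-type replicate 1 alone at 14 and 9. A group of 1 library has no spread of its own, so the last counts take it to vary like the MSTN+/- libraries, and no p-value is given for single genes against it. Over the whole table the higher share of calls was 71.3% as deposited, 50.3% after median-of-ratios scaling, 46.9% after quantile normalization and 63.8% after TPM rescaling.

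**Figure D4:**
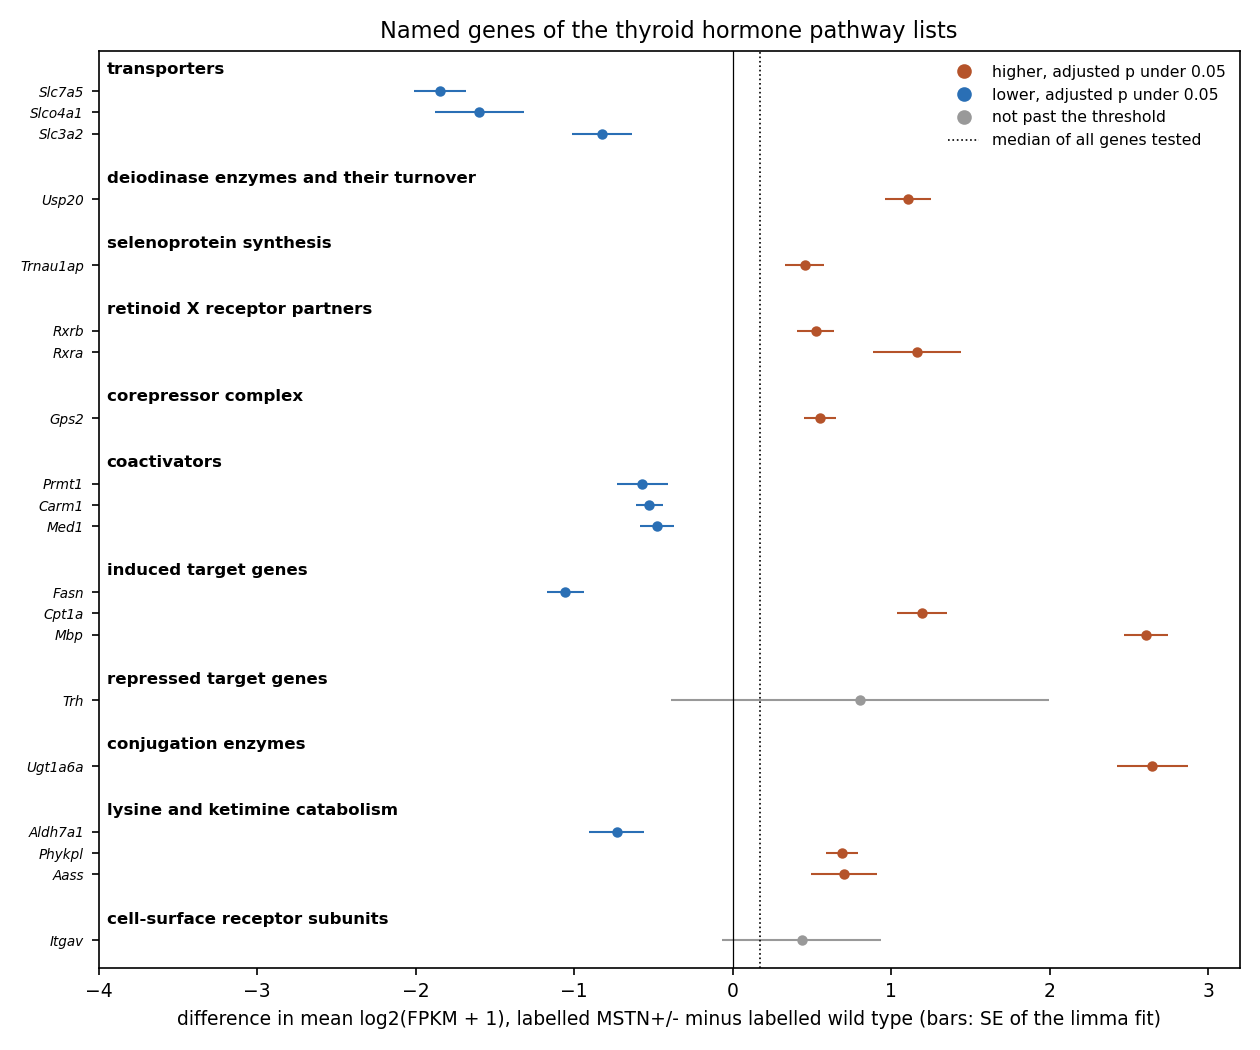
Difference in mean log2(FPKM + 1) between labelled groups for the named pathway genes that were tested, by list, with the standard error of the limma fit as bars: at most 3 genes a list, by smallest p among those past the threshold, or the most abundant gene where none passed. Red points are higher and blue points lower at an adjusted p under 0.05, and grey points did not pass. The dotted line is the median of all genes tested (0.17). The transporters and coactivators shown lie to the left of 0 and both retinoid X receptor genes to the right. Slco4a1, Aass and Ugt1a6a met the low-value filter only through the group in which each was high, so their colours stand for no test.

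Transporters were lower or not past the threshold: of 6 tested, 3 were called lower and 0 higher, but 1 of the 3, Slco4a1, entered the test only through the group in which it was high. Of all genes tested, 12.8% were called lower and 31.8% higher. Slc7a5, the light chain of the large neutral amino acid transporter that also carries thyroid hormone, was at 29.19 ± 5.10 FPKM (SD, n = 7) in the MSTN+/- group and at 95.75, 97.46 and 128.36 FPKM across wild-type replicates 1 to 3. No MSTN+/- library reached the lowest wild-type library, and the log2 difference was -1.85 (SE 0.17, limma adjusted p = 2.02e-05). Its partner, the heavy chain gene Slc3a2, was at 79.27 ± 11.97 FPKM against 102.79, 139.79 and 189.40 FPKM, a log2 difference of -0.82 (SE 0.19, limma adjusted p = 0.00599). Against wild-type replicate 1 alone the Slc3a2 difference was -0.38.

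Slco4a1, an organic anion transporter of thyroid hormone, was at 0.47 ± 0.27 FPKM in the MSTN+/- group and at 6.79, 2.41 and 2.20 FPKM across wild-type replicates 1 to 3. It passed the filter only through the 3 wild-type libraries, so its direction was fixed by the filter. Its log2 difference of -1.60 is therefore a description with no test.

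Genes that act on the deiodinases were mostly not past the threshold. Of all genes tested, 31.8% were called higher and 12.8% lower. The third deiodinase, Dio1, was at 0.06 FPKM or less in all libraries. Of 4 turnover genes tested, Usp20, a deubiquitinating enzyme that acts on type 2 deiodinase, rose, at 7.62 ± 1.15 FPKM (SD, n = 7) against 3.0 ± 0.57 FPKM (SD, n = 3), a log2 difference of 1.11 (SE 0.14, limma adjusted p = 2.20e-04, higher in 7 of 7 libraries). Deiodinases contain selenocysteine, and of 6 genes that insert it 1 rose, Trnau1ap, a selenocysteine tRNA-associated protein. It was at 23.37 ± 2.30 FPKM against 16.90 ± 2.94 FPKM, a log2 difference of 0.45 (SE 0.13, limma adjusted p = 0.0155). That call was lost after median-of-ratios scaling (adjusted p = 0.0893) and with library weights (0.155).

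Both retinoid X receptor genes tested rose, beside 31.8% higher and 12.8% lower of all genes tested. The third, Rxrg, was too low to test. Rxra was at 17.42 to 21.35 FPKM in the MSTN+/- group, with a median of 18.07 FPKM, and at 16.51, 5.44 and 5.12 FPKM across wild-type replicates 1 to 3. As with Thra, wild-type replicate 1 lay just below the MSTN+/- libraries. The log2 difference was 1.17 (SE 0.28, limma adjusted p = 0.00744). Set against wild-type replicate 1 only, it was 0.18. Rxrb was at 24.01 ± 1.33 FPKM against 13.61, 16.07 and 19.99 FPKM, a log2 difference of 0.53 (SE 0.12, limma adjusted p = 0.00515) that did not pass with library weights (0.0549).

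In the corepressor complex, 1 of 5 other subunits rose and 0 fell, beside 31.8% higher and 12.8% lower of all genes tested. Gps2 was at 27.26 ± 2.38 FPKM (SD, n = 7) against 18.24 ± 1.01 FPKM (SD, n = 3), a log2 difference of 0.55 (SE 0.10, limma adjusted p = 0.00185).

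Of 9 coactivators tested, 5 fell and 0 rose, beside 12.8% lower and 31.8% higher of all genes tested. Carm1, an arginine methyltransferase recruited to receptors, was at 61.34 ± 1.89 FPKM against 84.24, 83.76 and 99.15 FPKM, a log2 difference of -0.53 (SE 0.09, limma adjusted p = 8.87e-04). Med1, the Mediator subunit that binds receptors, was at 14.37 ± 0.69 FPKM against 16.73, 21.77 and 23.21 FPKM (log2 difference -0.48, limma adjusted p = 0.0063). Prmt1, another arginine methyltransferase, was at 154.7 ± 19.5 FPKM against 173.87, 267.77 and 256.29 FPKM (log2 difference -0.57, limma adjusted p = 0.0166). Its groups overlapped, with MSTN+/- replicate 3 at 174.86 FPKM, above wild-type replicate 1. In all 3 genes the wild-type replicate nearest to the MSTN+/- libraries was replicate 1 or, for Carm1, replicate 2 by a small margin. Against wild-type replicate 1 alone the differences of the 5 ran from -0.45, for Carm1, to -0.01, and those of Med1 and Prmt1 were -0.21 and -0.18. Prmt1 missed the threshold without wild-type replicate 2 or 3 (limma adjusted p of 0.0875 and 0.0782).

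Genes known to be induced by the hormone in various tissues moved in both directions: of 18, 10 were tested, 3 rose and 3 fell. Among all genes tested, 31.8% were called higher and 12.8% lower. Mbp, a myelin protein gene with transcripts outside the nervous system, was at 16.56 ± 2.48 FPKM (SD, n = 7) against 1.86 ± 0.14 FPKM (SD, n = 3), a log2 difference of 2.61 (SE 0.14, limma adjusted p = 5.45e-07). Cpt1a, which takes fatty acids into mitochondria, was at 61.10 ± 4.47 FPKM against 26.85 ± 7.73 FPKM, a log2 difference of 1.19 (SE 0.16, limma adjusted p = 2.65e-04). Fasn, the fatty acid synthase gene, went the other way, at 34.57 ± 3.98 FPKM against 72.53 ± 3.62 FPKM, a log2 difference of -1.06 (SE 0.12, limma adjusted p = 8.48e-05). In each of these 3 genes all 7 MSTN+/- libraries lay on the same side of all 3 wild-type libraries.

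Klf9 and Hr, 2 widely used reporters of receptor activity, were named after their values were seen, and Klf9 did not pass. Klf9 was at 16.94 to 24.57 FPKM in the MSTN+/- group, with a median of 20.93 FPKM, and at 15.04, 61.15 and 68.23 FPKM across wild-type replicates 1 to 3 (log2 difference -0.91, limma adjusted p = 0.0736). Hr was at 2.58 to 5.74 FPKM, with a median of 3.03 FPKM, against 0.26, 3.50 and 1.38 FPKM. With wild-type replicate 1 below 1 FPKM, Hr met the 3-library filter only through the MSTN+/- libraries, in which its mean was higher. Its log2 difference of 0.85 is therefore a description with no test. The muscle targets Atp2a1 and Ucp3 were at 0.20 FPKM or less and 0.05 FPKM or less in all libraries.

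Among genes repressed by the hormone, Trh, the hypothalamic releasing hormone gene, was the single gene tested. It was at 11.93 to 63.14 FPKM in the MSTN+/- group, with a median of 37.00 FPKM, and at 0.07, 67.80 and 90.23 FPKM across wild-type replicates 1 to 3 (log2 difference 0.80, limma adjusted p = 0.599). Trh was thus near 0 in the library with almost no pluripotency transcripts and highest in the 2 with the most. Among the MSTN+/- libraries, replicates 1 and 5 had the lowest pluripotent sums (908.4 and 926.2 FPKM) and held Trh at 22.87 and 18.99 FPKM. Replicate 7 had a sum of 1301 FPKM and the lowest Trh of the group, 11.93 FPKM. The part of cell type in the level of Trh was not tested. Against wild-type replicate 1 alone the Trh difference was 4.94, and without that library it was -1.27 (limma adjusted p = 0.0594).

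Plasma carriers had no gene tested, and the highest of them, the albumin gene Alb, reached 0.25 FPKM. Of the enzymes that conjugate the hormone, 1 was tested and called higher: Ugt1a6a, a glucuronosyltransferase. It was at 14.83 ± 1.59 FPKM (SD, n = 7) in the MSTN+/- group and at 0.72, 1.29 and 3.02 FPKM across wild-type replicates 1 to 3. With wild-type replicate 1 below 1 FPKM, the 3-library filter was met only through the MSTN+/- libraries, in which it was high. Its log2 difference of 2.65 is therefore a description with no test. The Ugt1a genes share their 3′ exons, so reads may have been divided among them, and the value of Ugt1a6a is uncertain.

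Crym's second role, as a ketimine reductase, was set beside 8 genes of lysine breakdown. Of 7 tested, 2 rose and 2 fell, but 1 of the 2 that rose, Aass, entered the test only through the group in which it was high. Over all genes tested, 31.8% were called higher and 12.8% lower. Phykpl, which acts on phosphohydroxylysine, was at 7.16 ± 0.57 FPKM against 4.05 ± 0.18 FPKM, a log2 difference of 0.69 (SE 0.10, limma adjusted p = 4.49e-04). Aass, the entry enzyme of the saccharopine route, was at 1.44 to 2.06 FPKM, with a median of 1.76 FPKM, against 0.42, 1.61 and 0.27 FPKM. Of the wild-type libraries only replicate 2 reached 1 FPKM, so Aass met the 3-library filter only through the MSTN+/- group. Its log2 difference of 0.71 is therefore a description with no test. Aldh7a1, which oxidises the semialdehyde of that route, fell, at 20.31 ± 1.11 FPKM against 23.31, 37.73 and 45.98 FPKM (log2 difference -0.73, SE 0.17, limma adjusted p = 0.00668). Against wild-type replicate 1 alone its difference was -0.19.

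The integrin subunits that form the cell-surface hormone receptor did not pass, and Itgav showed how far a group difference could depend on the wild-type library. It was at 25.11 to 26.88 FPKM in the MSTN+/- group, with a median of 26.44 FPKM, and at 71.58, 11.54 and 7.99 FPKM across wild-type replicates 1 to 3. The log2 difference of 0.44 (limma adjusted p = 0.493) was -1.41 against wild-type replicate 1 alone, 1.36 without that library (limma adjusted p = 2.29e-06) and 1.43 with library weights (1.58e-04).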

How the data were processed

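Gene expression was measured by RNA sequencing of 10 libraries, 7 labelled MSTN+/- and 3 labelled wild type. The authors deposited 1 table of FPKM values, per the file headers, with 2 decimals. The aligner, the counting tool and the genome build were not given in the sources used here, and depth is unknown. Groups were taken from the genotype label, and the labels give no replicate numbers, so those used here, in accession order, only name libraries. Values were tested as log2(FPKM + 1) with limma 3.58.1 (R 4.3.3) with an intensity trend, on the 14047 genes that reached 1 FPKM in 3 or more libraries, with Benjamini-Hochberg adjustment over all of them, a threshold of 0.05 and 8 residual degrees of freedom. The fit was run on simulated data with known changes and the same spread in both groups. Such data cannot show how the p-values hold with wild-type libraries of unlike content. The 8 genes and all lists were chosen with earlier results of these data known. Named list genes were those past the threshold, at most 3 a list by smallest p, or, where none passed, the most abundant gene. Alternatives were other scalings, pseudocount, filters, library weights, robust fitting and leaving out libraries. Gene tables for cattle matched 0 identifiers, so no sequence or coordinate is given. Some genes of the lists are not reported here by name, though they stay in the counts.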

Additional observations from a re-analysis of the deposited data

Results flagged for a closer look

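Of 30 genes checked in the 7 MSTN+/- libraries, 1 had a library set apart from the rest. Ugt1a6a was at 11.49 FPKM in MSTN+/- replicate 2, the nearest other library was at 14.53 FPKM and the highest at 16.26 FPKM. The gap was 0.637 of the whole range, against a critical value of 0.568 for 7 samples, and chance marks about 1 in 20 such groups. All 7 libraries remained above the highest wild-type library, at 3.02 FPKM.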

How the results depend on the processing

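Crym stayed higher in the MSTN+/- libraries under all 19 alternatives. Its log2 difference of 8.36 was 8.86 after TPM rescaling, 8.01 after quantile normalization, 9.40 with a pseudocount of 0.1 and 8.92 against wild-type replicate 1 alone, and 8.09 to 8.54 when each library was left out in turn. Ncor1 reversed against wild-type replicate 1 alone (0.12), as did Itgav (-1.41), which was also at -0.148 without wild-type replicate 3. The Trh difference of 0.80, not past the threshold, changed sign to -1.27 without wild-type replicate 1 and to -0.915 with library weights. The 13 pathway genes called lower became 23 after median-of-ratios scaling, 22 after quantile normalization and 21 with library weights, and 8 to 23 when each library was left out, the lowest without wild-type replicate 3 and the highest without wild-type replicate 1. The 11 called higher stayed within 1.5 times. Over the whole table the 1800 genes called lower became 3230 after median-of-ratios scaling, 3491 after quantile normalization and 3368 with library weights, and 4449, 793 and 791 without wild-type replicates 1, 2 and 3. The median log2 difference of all genes tested, 0.17 as deposited, was -0.06 after quantile normalization. The cause was not tested. Library weights were not run for Thrb, Dio3 and Thrsp, which were outside the filtered fit. No paired analysis was possible because the labels carry no replicate numbers, and those printed here follow accession order. Values near or below 1 FPKM, as for Thrb, Dio2, Dio3, Slc16a10 and Thrsp, rest on few fragments. The 3 wild-type libraries were of unlike content, and the limma fit takes 1 spread per gene for both groups. The SD of Rxra was 1.51 FPKM in the MSTN+/- group and 6.49 FPKM in the wild-type group, and that of Mbp 2.48 and 0.14 FPKM. Where the smaller group varies more, as for Rxra, the adjusted p-values can be too small.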

Other observations

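Secisbp2, which encodes the protein that directs selenocysteine into deiodinases and other selenoproteins, was split within both groups. MSTN+/- replicates 1, 3, 5 and 7 held 4.48, 7.78, 6.39 and 5.80 FPKM, whereas replicates 2, 4 and 6 did not exceed 0.01 FPKM. Wild-type replicate 3 held 9.91 FPKM, and wild-type replicates 1 and 2 held 0.01 FPKM or less. In the MSTN+/- libraries 115 of 21130 rows were split in this way, with at least 2 libraries at 0.01 FPKM or less and at least 2 at 3 FPKM or more, and 0 of the 8 thyroid hormone genes were among them. A listed value near 0 for such a gene can be a failed estimate of the deposited table, which was not tested.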
